A study of Homo sapiens with 8 samples.

Results

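The 42 genes described here are genes of the lysosome, GPNMB, a membrane glycoprotein that accumulates in stressed lysosomes, the autophagy receptor SQSTM1, and TFEB, TFE3 and MITF, transcription factors that act on lysosome genes. They were chosen by gene symbol, without a threshold on any value, but with earlier results of the same libraries known, so their changes are given as a description of the genes. All 42 were found among the 21510 symbols of the expression table, and 39 of them passed a filter that asks for an RPKM (reads scaled to transcript length and to the mapped reads of the library) of 1 or more in 2 or more libraries, as did 12567 genes in all. CTSH, CTSS and MITF did not pass it. GPNMB passed it through the libraries that received tetracycline, with or without EGF, since its control values were all below 1 RPKM.

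The cells were N/TERT-2G, an immortalised human keratinocyte line, and all groups carried a hairpin construct that targets AREG, which encodes amphiregulin, a ligand of the EGF receptor. The Tet+EGF group (2 libraries) received tetracycline at 1 µg/ml to induce the hairpin and recombinant EGF at 20 ng/ml. The Tet group (3 libraries) received tetracycline at 1 µg/ml without EGF, the control group (3 libraries) received neither, and all cells were collected after 60 h. Both Tet+EGF libraries, 1 Tet library and 1 control library (replicate 1 of each) belonged to batch 2, and the other 2 Tet and 2 control libraries belonged to batch 1. Tetracycline and the hairpin always came together, so their effects cannot be told apart, and since nothing in the labels marks the replicates as separate cultures, p-values cover only the spread among these libraries, which may be technical.

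The lysosome is the acidic compartment in which cells break down proteins, glycans and lipids delivered by endocytosis and autophagy. Its hydrolases work at the low pH set by the vacuolar proton pump, and its membrane is lined with heavily glycosylated proteins such as LAMP1 and LAMP2. TFEB, TFE3 and MITF belong to a family of basic helix-loop-helix leucine zipper factors that bind CACGTG-type sequences, known as CLEAR elements, near lysosome genes, and they are held in the cytoplasm by mTORC1 when nutrients and growth factors are plentiful. In keratinocytes lysosomal proteases also take part in terminal differentiation, where CTSD helps to process cornified envelope proteins.

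To show what the promoters hold, sequences were read from the RefSeq promoter table of GRCh38.p14, which covers 250 bases before and 50 bases after each gene's start and matched 31 of the 42 genes. The motif CACGTG, a palindrome and so the same on both strands, occurred in 8 of these 31 promoters (25.8%), against 7.43% of 27305 promoters in the table. The 8 were those of CTSA, CTSD, LAMP1, CD63, GAA, NEU1, MCOLN1 and ATP6V0D1. The extended form TCACGTGA, which contains CACGTG, occurred in 5 of the 31 (16.1%), against 1.04% of all promoters. TCATGTG, the M-box letters associated with MITF, was found on either strand in 6 of the 31 (19.4%; GPNMB, CTSA, CD63, TPP1, PPT1 and SCARB2), against 2.99% of all promoters. The LAMP1 promoter held 6 copies of CACGTG in this window, and it was the 1 promoter of 27305 with 5 or more. These matches are a description of letters in a window.
The 250 bases before the starts of GPNMB (chr7:23246525-23246774, plus strand) and LAMP1 (chr13:113296989-113297238, plus strand) are shown because GPNMB changed most among these genes and LAMP1 held the most motifs. In GPNMB capitals mark CACATGA, the M-box read on the other strand, and in LAMP1 they mark CACGTG, of which the sixth copy spans the start and lies outside these bases.
GPNMB: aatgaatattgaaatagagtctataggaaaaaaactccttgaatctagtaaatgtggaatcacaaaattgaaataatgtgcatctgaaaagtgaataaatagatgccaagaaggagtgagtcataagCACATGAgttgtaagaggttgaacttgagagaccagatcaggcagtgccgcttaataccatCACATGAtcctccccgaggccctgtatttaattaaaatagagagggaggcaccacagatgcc
LAMP1: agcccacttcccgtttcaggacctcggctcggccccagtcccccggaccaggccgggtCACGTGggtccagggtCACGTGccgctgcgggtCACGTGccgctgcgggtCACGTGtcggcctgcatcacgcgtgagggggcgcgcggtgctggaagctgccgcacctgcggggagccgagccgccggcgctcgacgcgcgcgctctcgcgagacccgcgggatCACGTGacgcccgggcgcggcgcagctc
Windows of 30 bases around 1 CACGTG (capitals) each are shown for 4 enzymes and a channel that were higher with Tet: CTSA (chr20:45891281-45891310, plus strand), CTSD (chr11:1763957-1763986, minus strand), GAA (chr17:80101493-80101522, plus strand), NEU1 (chr6:31862930-31862959, minus strand) and MCOLN1 (chr19:7522571-7522600, plus strand).
CTSA: gaggaagactgtCACGTGgcgccggagttc
CTSD: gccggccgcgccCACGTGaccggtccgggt
GAA: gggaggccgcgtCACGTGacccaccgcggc
NEU1: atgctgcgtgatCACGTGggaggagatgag
MCOLN1: accagaggcggtCACGTGaggggctctggg

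The hairpin was checked on its target. AREG stood at 20.9 and 17.5 RPKM with Tet+EGF, 6.63, 16.7 and 16.3 RPKM with Tet and 316, 202 and 189 RPKM in control cells, so all libraries with tetracycline lay below all control libraries. Relative depth, judged by the spacing of low RPKM values, lay between 63.3% and 110.7% of control replicate 1. For control replicate 2 it was 80.2% by way of other libraries and 120.3% when read directly, a disagreement that was not settled. Across genes, the correlation lay between 0.990 and 0.996 for replicates within a batch and between 0.953 and 0.962 for replicates across batches. All 12 keratinocyte markers passed the filter, with KRT5 the highest.

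Together the 42 genes made up 0.537% and 0.545% of the summed RPKM with Tet+EGF, 0.648%, 0.613% and 0.615% with Tet and 0.465%, 0.450% and 0.446% in control cells, so the groups did not overlap. PSAP, the precursor of the saposins that help degrade sphingolipids, CTSD, an aspartic protease, and CD63, a tetraspanin of late endosomes, held the first 3 places by mean RPKM in every group. CTSD stood first in the Tet group and PSAP in the other two. At the other end, CTSS, CTSH, MITF and, in control cells, GPNMB averaged below 1 RPKM. In bulk RNA, fewer cells that carry a transcript and less of it per cell cannot be told apart.

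**Figure D1:**
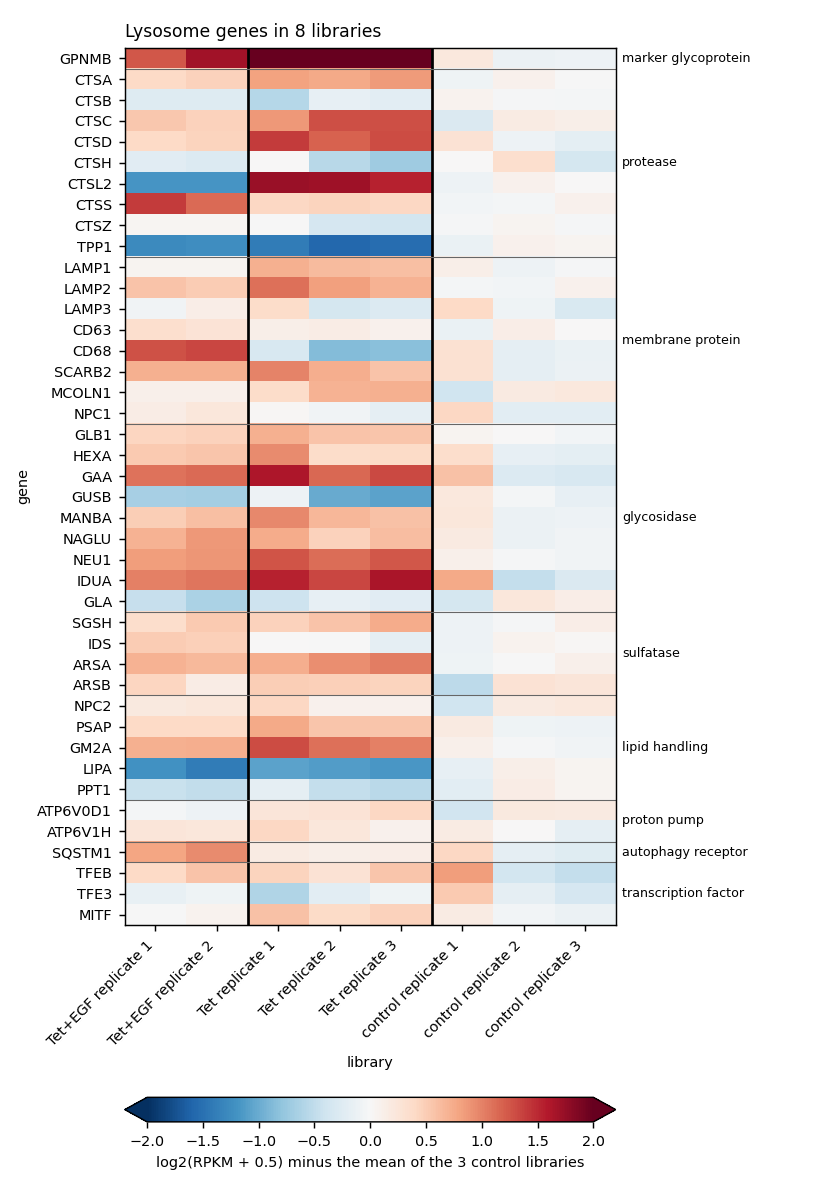
Difference of log2(RPKM + 0.5) in each of 8 libraries (columns) from the mean of the 3 control libraries, for 42 genes (rows) ordered by role; the colour scale ends at -2 and 2, which GPNMB exceeds. The 3 Tet columns are mostly red outside a few blue rows such as TPP1, LIPA and GUSB, and the 2 Tet+EGF columns show paler red for most of the same rows, with CTSL2 blue and CD68 red.

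Tet was compared with control to ask which lysosome genes changed when the hairpin was induced. Of the 39 genes tested, 22 were higher, 7 were lower and 10 did not pass (limma with Benjamini-Hochberg adjustment over 12567 genes, threshold 0.05). Among all 12567 genes, 26.2% were called higher and 29.9% lower. The median log2 fold change of the 39 genes was 0.57, against -0.04 for all genes tested, and it was 0.55 in batch 1 and 0.59 in batch 2. The rises spanned proteases, glycosidases, sphingolipid activators, sulfatases and membrane proteins, while the falls included TPP1, LIPA, GUSB and CD68. The count of falls was 4 in the fits without Tet replicate 3, without either Tet+EGF library and with the replicate number as a block. The calls of CTSB, CTSZ, PPT1, ATP6V0D1 and ATP6V1H depended on single libraries, and the other 24 calls, GPNMB among them, did not. Leaving out either Tet+EGF library left these log2 fold changes as they were. There only the estimate of the spread, and with it the p-values, changed.

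**Figure D2:**
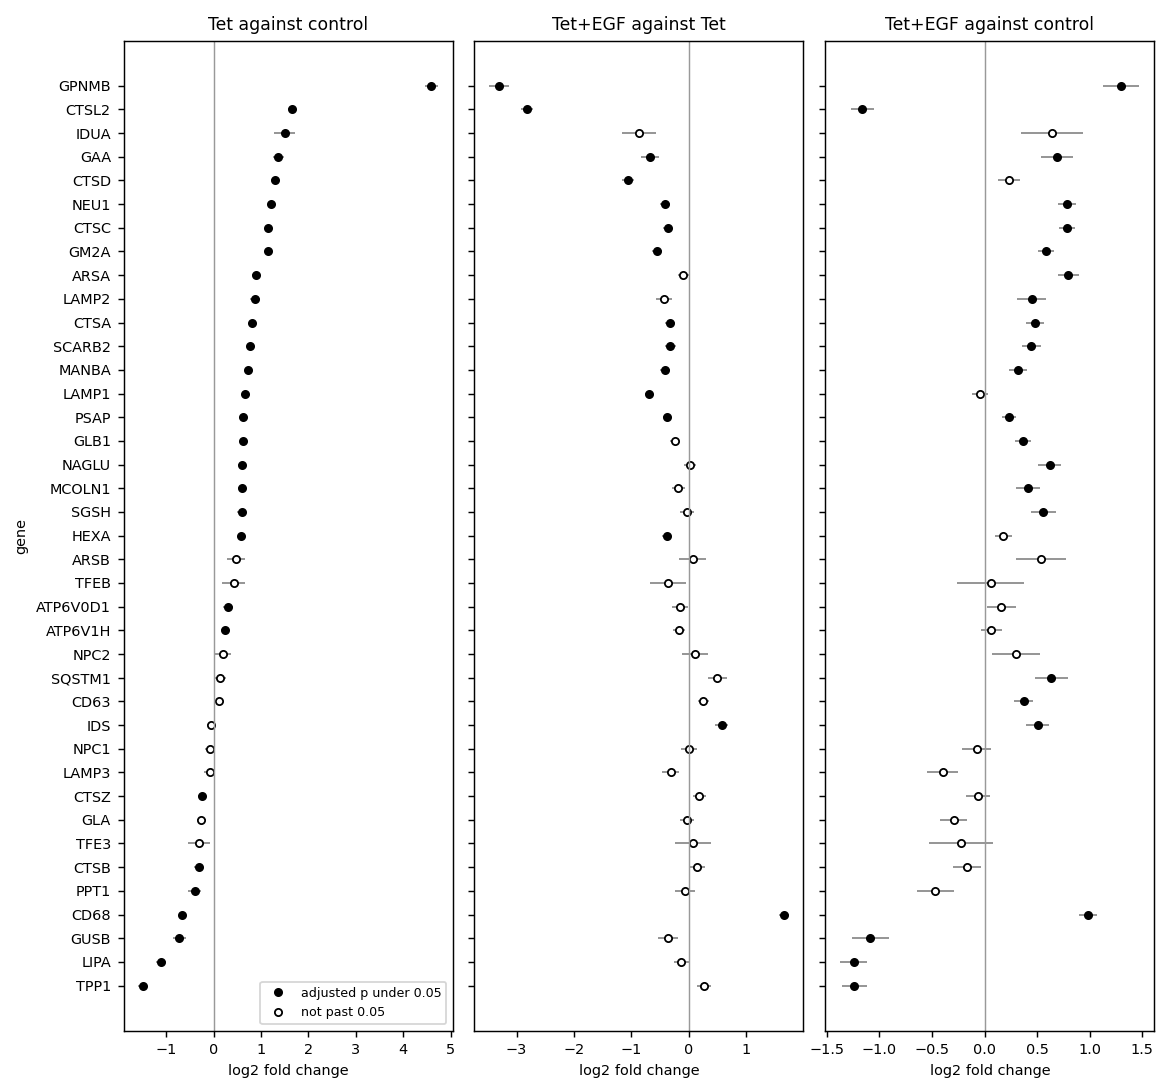
Log2 fold change of 39 lysosome genes (rows, ordered by Tet against control) in 3 comparisons, with bars of 1 standard error; filled points have a limma adjusted p under 0.05 and open points do not, and each panel has its own axis. GPNMB stands at 4.59, -3.30 and 1.30 in the 3 panels, and CD68 at -0.67, 1.65 and 0.98.

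GPNMB showed the largest change of the genes listed. It had 19.7, 17.1 and 18.3 RPKM in the Tet libraries, against 0.403, 0.218 and 0.229 RPKM in the control libraries, so every Tet library lay far above every control library. The means were 18.4 ± 1.31 RPKM with Tet and 0.283 ± 0.104 RPKM in control cells (SD, n = 3 each). The log2 fold change was 4.59 (SE 0.13), or 4.65 for batch 1 and 4.48 for batch 2. The pseudocount of 0.5 shrinks it, since the ratio of the mean RPKM values was 64.8. GPNMB is also expressed by melanocytes and macrophages, and markers of these cells were therefore read beside it. Of 12 melanocyte markers 1, GPR143, passed the filter, the list summed to 2.88, 2.33 and 1.67 RPKM in the Tet libraries and 3.03, 2.17 and 2.52 RPKM in the control libraries, and TYR, OCA2 and SLC45A2 were at 0 in every library. Of 16 macrophage and leukocyte markers 2 passed, and the list summed to 31.5, 25.0 and 23.0 RPKM with Tet and 22.9, 41.8 and 41.1 RPKM in control cells, most of it LCP1, an actin-bundling protein gene. CD163, TYROBP and AIF1 were at 0 in every library and PTPRC did not exceed 0.005 RPKM. Other markers below the filter went either way. CD14 had 0.404, 0.819 and 0.728 RPKM with Tet and 0.474, 0.135 and 0.127 RPKM in control cells. MARCO had 0.031, 0.268 and 0.430 RPKM with Tet and 0.102, 0 and 0 RPKM in control cells. ITGAX was at 0 with Tet and had 0.013, 0.034 and 0.031 RPKM in control cells. CSF1R, the receptor gene for macrophage colony-stimulating factor and the other marker that passed, had 5.89, 4.59 and 4.13 RPKM in the Tet libraries and 0.399, 0.430 and 0.439 RPKM in the control libraries, a log2 fold change of 2.53 (SE 0.13). Like GPNMB it passed the filter only through groups where it was high, here the Tet libraries, so no p is given for it.

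Among the proteases, 4 of 7 tested were higher and 3 were lower. CTSD had 572, 496 and 541 RPKM with Tet, against 265, 203 and 191 RPKM in control cells, and the log2 fold change reached 1.30 (SE 0.08; limma adjusted p = 2.96e-05). CTSL2, the cathepsin now named CTSV, which is found in few tissues including epidermis, had 67.9, 65.9 and 59.6 RPKM with Tet, against 18.6, 21.4 and 20.3 RPKM in control cells, which gave a log2 fold change of 1.66 (SE 0.08, limma adjusted p = 1.69e-05). Both cathepsins thus stood above their control range in each Tet library. CTSC, the dipeptidyl peptidase that activates serine proteases of granules, had 33.0, 44.4 and 44.3 RPKM with Tet and 14.5, 20.1 and 19.3 RPKM in control cells, with a log2 fold change of 1.15 (SE 0.06, limma adjusted p = 1.84e-05). CTSA, the carboxypeptidase that protects GLB1 and NEU1 in a shared complex, was higher by a log2 fold change of 0.81. Its partners were higher too, at 0.61 for the β-galactosidase GLB1 and 1.20 for the sialidase NEU1. Part of the exons of CTSA and CTSD overlap annotated neighbours, at 10.4% with NEURL2 and 54.9% with another annotated gene on the same strand, so reads of these loci may be shared.

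TPP1, a tripeptidyl peptidase, went the other way. It had 8.87, 7.78 and 8.04 RPKM with Tet, against 21.9, 25.5 and 25.1 RPKM in control cells, and the log2 fold change reached -1.50 (SE 0.09; limma adjusted p = 2.92e-05). The fall was larger in batch 1, at -1.62, than in batch 2, at -1.26, and the interaction with batch passed (0.36, limma adjusted p = 0.0447). Batch 2 holds 1 Tet and 1 control library, so in this and every other interaction a difference between batches cannot be told apart from the deviation of 1 library. The cysteine proteases CTSB and CTSZ were lower by less, at -0.32 (limma adjusted p = 0.0311) and -0.24 (limma adjusted p = 0.0482), and their interactions passed as well. CTSB stood at -0.16 in batch 1 and -0.63 in batch 2, and CTSZ at -0.37 in batch 1 and 0.01 in batch 2. The call of CTSB was lost without Tet replicate 3 (-0.35) and without either Tet+EGF library (-0.32), and its value was -0.16 without Tet replicate 1 or control replicate 1. The call of CTSZ was lost in every fit that left out 1 library other than those without Tet replicate 1 or control replicate 1, where the value was -0.37. With the replicate number as a block neither passed, at an adjusted p of 0.0999 for CTSB and 0.148 for CTSZ.

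CTSH and CTSS, proteases that are high in antigen-presenting cells, stayed below the filter. CTSS had 1.00 and 0.749 RPKM with Tet+EGF, 0.262, 0.281 and 0.265 RPKM with Tet and 0.053, 0.057 and 0.107 RPKM in control cells, so the 3 groups did not overlap. In a fit without the filter its log2 fold change was 0.43 for Tet against control (limma adjusted p = 0.00764), 0.86 for Tet+EGF against Tet (limma adjusted p = 0.00574) and 1.29 for Tet+EGF against control (limma adjusted p = 0.00142). CTSH did not pass there in any comparison, and its values lay between 0.199 and 0.944 RPKM.

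**Figure D3:**
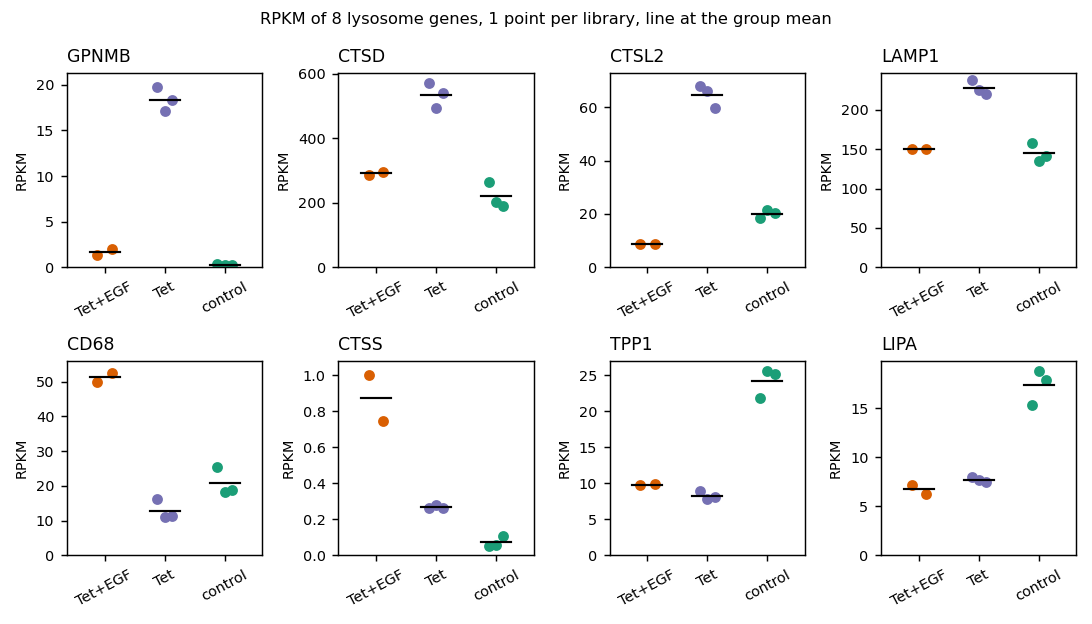
RPKM of 8 genes in each library (points) with the group mean (line), in the order Tet+EGF, Tet and control; each panel has its own axis, which starts at 0. CTSD, CTSL2 and LAMP1 are high with Tet, CD68 and CTSS are highest with Tet+EGF, and TPP1 and LIPA are low in both groups with tetracycline.

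Of 9 glycosidases tested, 7 were higher, 1 was lower and 1 did not pass. GAA, the acid α-glucosidase that degrades glycogen, had 31.1, 22.3 and 25.1 RPKM with Tet, against 15.0, 8.00 and 7.76 RPKM in control cells, which gave a log2 fold change of 1.36 (SE 0.11, limma adjusted p = 0.000107). It was 1.53 in batch 1 and 1.03 in batch 2 (interaction of -0.50, limma adjusted p = 0.0292). NEU1 had 40.5, 36.7 and 39.9 RPKM with Tet, against 17.9, 16.4 and 15.9 RPKM in control cells, and every Tet library was above every control library for both enzymes. IDUA, which acts on dermatan and heparan sulfate, had 5.50, 4.73 and 5.96 RPKM with Tet and 3.00, 0.998 and 1.20 RPKM in control cells. Its log2 fold change of 1.50 (SE 0.22, limma adjusted p = 0.00126) was 1.86 in batch 1 and 0.78 in batch 2, and that interaction passed too (-1.09, limma adjusted p = 0.0147). MANBA, NAGLU, GLB1 and HEXA, which remove mannose, N-acetylglucosamine, galactose and N-acetylhexosamine residues, were higher by 0.57 to 0.73 on the log2 scale. GUSB, the β-glucuronidase often used as a reference gene in quantitative PCR, had 19.0, 9.94 and 9.49 RPKM with Tet, against 23.6, 19.8 and 18.2 RPKM in control cells, and the log2 fold change reached -0.72 (SE 0.13; limma adjusted p = 0.00304). One Tet library, replicate 1, reached the lower end of the control range, and the fall was -0.93 in batch 1 and -0.30 in batch 2 (interaction of 0.63, limma adjusted p = 0.0105). GUSB has annotated pseudogenes that may share its reads. GLA, the α-galactosidase, was at -0.26 and did not pass (limma adjusted p = 0.0547), though it passed at -0.37 without Tet replicate 1 or control replicate 1.

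Of 4 sulfatases, ARSA and SGSH were higher and IDS and ARSB did not pass. ARSA, which degrades sulfatide, had 12.5, 14.5 and 15.4 RPKM with Tet, against 6.88, 7.33 and 7.93 RPKM in control cells, with a log2 fold change of 0.89 (SE 0.07, limma adjusted p = 0.000102). SGSH, which acts on heparan sulfate, was higher by a log2 fold change of 0.59. IDS stood at -0.06 and ARSB at 0.47 (limma adjusted p = 0.537 and 0.0633).

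Among 5 genes of lipid handling, both sphingolipid activator genes were higher and both lipid-cleaving enzyme genes were lower. GM2A, the activator that presents GM2 ganglioside to hexosaminidase, had 115, 99.5 and 93.4 RPKM with Tet, against 49.5, 45.4 and 44.1 RPKM in control cells, which gave a log2 fold change of 1.14 (SE 0.06, limma adjusted p = 1.85e-05). PSAP had 405, 353 and 351 RPKM with Tet, against 271, 226 and 224 RPKM in control cells, with a log2 fold change of 0.62 (SE 0.05, limma adjusted p = 9.05e-05). For both activators all Tet libraries lay above all control libraries. LIPA, the acid lipase that hydrolyses cholesteryl esters and triglycerides, had 7.95, 7.71 and 7.46 RPKM with Tet, against 15.4, 18.8 and 17.9 RPKM in control cells. The groups did not overlap, and the log2 fold change of -1.12 (SE 0.10, limma adjusted p = 0.000121) split into -1.22 for batch 1 and -0.91 for batch 2. PPT1, the palmitoyl-protein thioesterase, was at -0.40 (limma adjusted p = 0.0354), or -0.62 for batch 1 and 0.03 for batch 2. Its call was lost in 6 of the 8 fits that left out 1 library, stood at -0.62 in those without Tet replicate 1 or control replicate 1, and was lost with the replicate block (adjusted p of 0.0828). PPT1 shares 27.3% of its exon bases with CAP1 on the other strand. NPC2, the cholesterol carrier of the lysosome lumen, had a difference of -0.11 in batch 1 and 0.81 in batch 2, opposite in sign (interaction of 0.92, limma adjusted p = 0.00104).

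The 2 members with the largest falls also shared a sequence feature. TPP1 and LIPA each hold the 8 letters CCAAGTCA in an annotated 3' UTR (GENCODE v29, GRCh38), as does AREG. The word was looked at because earlier results of these libraries had singled it out, so what follows adds no independent evidence. Searching 3' UTRs of at least 100 bases on the transcript strand, 4 of 38 tested members held it (10.5%), against 3.58% of 10215 tested genes. Of the 366 tested genes with the word 50.3% were lower and 14.5% higher with Tet, against 30.0% lower and 27.7% higher among genes without it. A gene counted as holding the word if any of its searched 3' UTRs held it. Genes with and without it were not matched for UTR length or number of transcripts. The other 2 members with the word were SGSH, which was higher, and ARSB, which did not pass. It was in 7 of 9 searched transcripts of TPP1, 3 of 3 of LIPA, 1 of 2 of SGSH and 1 of 3 of ARSB.

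Of 8 membrane proteins tested, LAMP1, LAMP2, SCARB2 and MCOLN1 were higher, CD68 was lower and LAMP3, CD63 and NPC1 did not pass. LAMP1 had 238, 225 and 219.9 RPKM with Tet, against 158, 135 and 142 RPKM in control cells, and the log2 fold change reached 0.65 (SE 0.05; limma adjusted p = 0.000103). LAMP2, which also serves chaperone-mediated autophagy, had 21.7, 17.9 and 16.4 RPKM with Tet and 9.66, 9.48 and 10.6 RPKM in control cells, with a log2 fold change of 0.87 (SE 0.10, limma adjusted p = 0.00044). SCARB2, the receptor that carries β-glucocerebrosidase to lysosomes, was at 0.76, and MCOLN1, a calcium channel of the lysosomal membrane, at 0.59. The 4 genes thus rose by 0.59 to 0.87 on the log2 scale. LAMP3, CD63 and NPC1, the membrane partner of NPC2 in cholesterol export, stood at -0.09, 0.12 and -0.08, and NPC1 was at 0.08 in batch 1 and -0.39 in batch 2. CD68, also called macrosialin, which is used as a macrophage marker, had 16.2, 10.995 and 11.3 RPKM with Tet, against 25.3, 18.1 and 18.7 RPKM in control cells, which gave a log2 fold change of -0.67 (SE 0.06, limma adjusted p = 0.000166). Both subunit genes of the vacuolar proton pump, ATP6V0D1 at 0.31 (limma adjusted p = 0.0418) and ATP6V1H at 0.24 (limma adjusted p = 0.0331), were called higher. Neither call held without either Tet+EGF library (0.31 and 0.24) or with the replicate block (adjusted p of 0.142 and 0.11). ATP6V0D1 lost its call in every fit that left out 1 library other than that without Tet replicate 2 (0.39), and was at 0.15 without Tet replicate 1 or control replicate 1. ATP6V1H lost its call also without Tet replicate 2 (0.20) or control replicate 3 (0.19).

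The transcription factors themselves gave no call in the fit with both batches. TFEB had 9.36, 8.35 and 10.1 RPKM with Tet and 12.5, 5.14 and 4.72 RPKM in control cells, so that the control library of batch 2 lay above all Tet libraries and those of batch 1 below them. Its difference was 0.84 in batch 1 and -0.40 in batch 2, and the interaction passed its test (-1.23, limma adjusted p = 0.00576). TFE3 had 23.8, 31.5 and 34.4 RPKM with Tet and 52.6, 32.1 and 28.8 RPKM in control cells, with a difference of 0.11 in batch 1 and -1.13 in batch 2 (interaction of -1.24, limma adjusted p = 0.0017). TFEB passed at 0.84 in batch 1 alone and without Tet replicate 1 or control replicate 1. MITF stayed below 1 RPKM everywhere, at 0.708, 0.555 and 0.603 with Tet and 0.402, 0.276 and 0.246 in control cells, and in the fit without a filter it was at 0.48 (limma adjusted p = 0.0012). SQSTM1, the autophagy receptor p62, was at 0.14 and did not pass (limma adjusted p = 0.365), its batch values being 0.33 and -0.25 (interaction of -0.58, limma adjusted p = 0.0122). It passed at 0.33 without Tet replicate 1 or control replicate 1, and its exons overlap those of MRNIP on the other strand over 39.8% of their bases. In all, 14 of the 39 genes had a limma interaction past 0.05, and so had 26.7% of all genes tested. For 7 of the 14 the sign differed between batches, and how often it did among all genes was not counted. Some of these values were small, with CTSZ at 0.01 and PPT1 at 0.03 in batch 2 and NPC1 at 0.08 in batch 1. Each batch 2 value rests on 1 library per group.

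**Figure D4:**
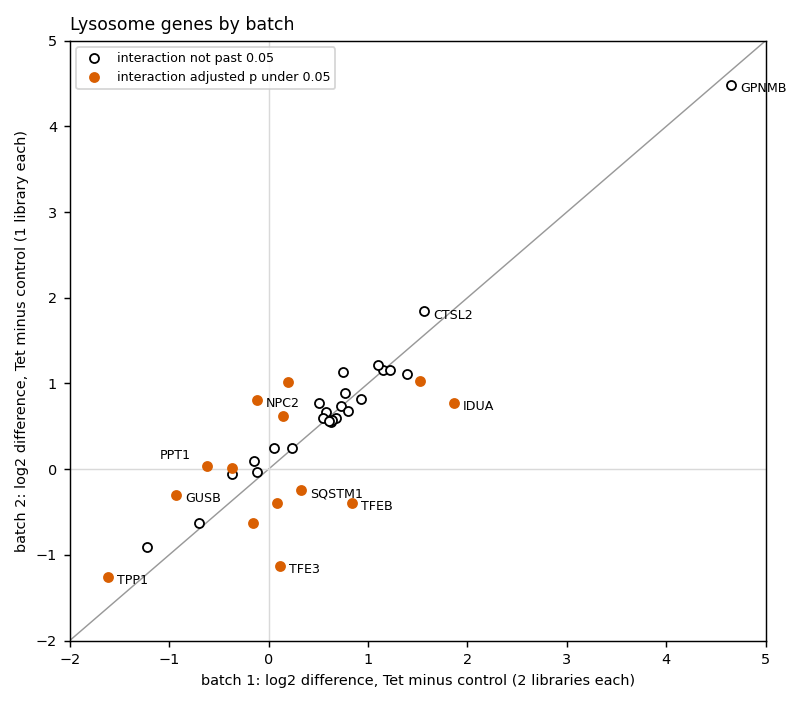
Log2 difference between Tet and control within batch 1 (horizontal, 2 libraries per group) and batch 2 (vertical, 1 library per group) for 39 genes; filled points have a batch interaction with a limma adjusted p under 0.05 and the line marks equal values. GPNMB and CTSL2 lie near the line, while TFEB at 0.84 and -0.40 and TFE3 at 0.11 and -1.13 lie below it and NPC2 at -0.11 and 0.81 above it.

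The promoters with CACGTG were set beside these calls. Of the 8 genes with it, 7 were higher with Tet, 0 were lower and CD63 did not pass, while of the 21 tested genes with a promoter sequence and no CACGTG, 7 were higher, 6 were lower and 8 did not pass. Of the 6 genes with the M-box letters, 3 were higher, 2 were lower and 1 did not pass, and of the 23 tested genes with a promoter sequence and without those letters, 11 were higher, 4 were lower and 8 did not pass. The calls of ATP6V0D1, higher with CACGTG, and of PPT1 and CTSZ, lower without it, were lost in most fits that left out 1 library. PPT1 is also among the lower genes with the M-box letters. Among all genes tested, 26.2% were higher and 29.9% lower, and these are counts within a list chosen with results known, of which no test was made.

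Other genes of the pathway were read from 6 further lists. Of 39 other lysosomal hydrolases and activators tested, 29 were higher and 4 lower with Tet, with a median log2 fold change of 0.52. IFI30, a thiol reductase, was at 1.70, CTSO, a cathepsin, at 1.59, SMPD1, acid sphingomyelinase, at 1.32 and MAN2B2, a mannosidase, at 1.30. Of 37 other membrane proteins and transporters, 25 were higher and 1 lower (median 0.46). Among them were SLC29A3, a nucleoside transporter, at 1.42, SLC17A5, the sialic acid exporter, at 1.28, SLC36A1, an amino acid transporter, at 1.24 and CLN3 at 1.11. The call of SLC29A3 is only counted, since its control values were all below 1 RPKM and it passed the filter through libraries with tetracycline. Of 18 other subunits and accessory proteins of the proton pump, 11 were higher and 2 lower (median 0.43). ATP6AP1 was at 1.02, ATP6V1A at 0.98 and ATP6V1E1 at 0.97, while ATP6AP2, which encodes the prorenin receptor, was at -1.76. ATP6AP2 had 15.9, 11.1 and 9.21 RPKM with Tet, against 43.8, 39.8 and 39.5 RPKM in control cells, without overlap.

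The lists further from the lysosome itself had medians nearer to that of all genes. Of 40 sorting and delivery genes, 17 were higher and 6 lower (median 0.18), with LYST at 0.86, HPS1 at 0.76 and SORL1, a sorting receptor, at -1.26. Of 38 autophagy genes, 17 were higher and 4 lower (median 0.21), with ULK1, the initiating kinase, at 1.11, TECPR1 at 0.82, GABARAPL2 at 0.70 and GABARAP at 0.64. Of 28 genes of mTORC1, Ragulator and folliculin, 12 were higher and 4 lower (median 0.11). GATSL3, now CASTOR1, an arginine sensor, was at 3.00 and SESN3, a sestrin, at 2.30, while SESN1 was at 0.90 and C11orf59, the Ragulator anchor LAMTOR1, at 0.56.

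**Figure D5:**
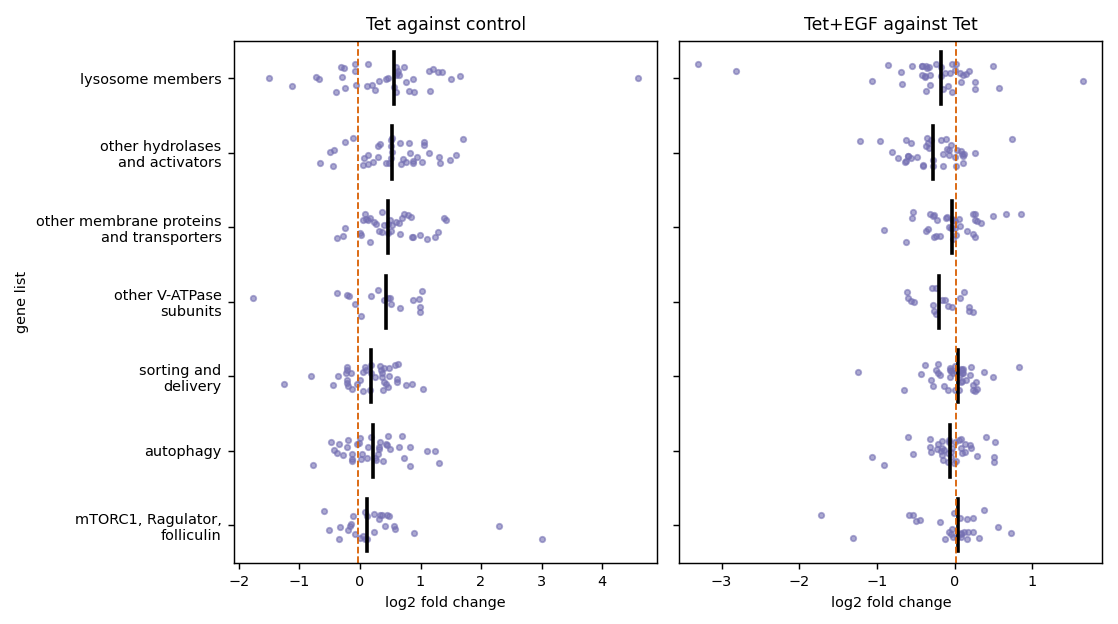
Log2 fold change of each tested gene (points) in 7 lists (rows), with the list median (black bar) and the median of all 12567 genes (dashed line), for Tet against control (left) and Tet+EGF against Tet (right). In the left panel the medians of the lysosomal lists lie between 0.43 and 0.57, right of the dashed line at -0.04, and in the right panel those of the hydrolases and of the members lie at -0.28 and -0.18.

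The comparison of Tet+EGF with Tet asked which of these genes changed when EGF was added to cells with the induced hairpin. Of the 39 genes tested, 13 were lower, 2 were higher and 24 did not pass (limma with Benjamini-Hochberg adjustment over 12567 genes), against 9.15% of all genes called lower and 9.82% called higher. The median log2 fold change of the 39 genes was -0.18, against 0.02 for all genes, and -0.27 within batch 2, which holds both Tet+EGF libraries and 1 Tet library. Only the calls of GPNMB, CTSL2, CTSD, LAMP1 and CD68 held under every alternative tried. That of GPNMB is only counted, since it passed the filter through libraries with tetracycline, where it was high. Of the 15 calls, 10 were lost without Tet+EGF replicate 1, which left 4 lower and 1 higher, and 9 without Tet+EGF replicate 2, which left 5 lower and 1 higher. Without control replicate 1 the counts were 21 lower and 5 higher, and without Tet replicate 1 they were 16 lower and 8 higher. With the replicate block 4 were lower and 1 was higher. The block takes the place of the batch term. It sets Tet+EGF replicate 2, of batch 2, beside Tet and control replicate 2, of batch 1. Calls lost under the block therefore cannot be told apart from the difference between batches.

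GPNMB had 1.33 and 1.99 RPKM with Tet+EGF, against 19.7, 17.1 and 18.3 RPKM with Tet, a log2 fold change of -3.30 (SE 0.17). Both Tet+EGF libraries remained above the control libraries, at 0.403, 0.218 and 0.229 RPKM, and the log2 fold change against control was 1.30 (SE 0.17). CSF1R, the macrophage marker that was high with Tet, had 0.604 and 0.596 RPKM with Tet+EGF, and its log2 fold change against Tet was -2.39 (SE 0.17). The melanocyte markers summed to 3.05 and 4.14 RPKM with Tet+EGF. Among them GPR143 had 1.85 and 2.53 RPKM with Tet+EGF, 0.932, 1.31 and 0.582 RPKM with Tet and 0.810, 0.414 and 0.688 RPKM in control cells. TYRP1 went the other way, at 0.020 and 0.011 RPKM with Tet+EGF and 0.304, 0.081 and 0.076 RPKM in control cells. The part of these markers in the values of GPNMB was not tested.

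CTSL2 had 8.57 and 8.62 RPKM with Tet+EGF, against 67.9, 65.9 and 59.6 RPKM with Tet, and the log2 fold change reached -2.82 (SE 0.11; limma adjusted p = 3.14e-05). It also fell below the control libraries, at 18.6, 21.4 and 20.3 RPKM, with a log2 fold change of -1.16 against control (SE 0.11, limma adjusted p = 0.000589). The 3 groups of CTSL2 did not overlap, with Tet+EGF lowest, and its mean RPKM with Tet was 7.50 times that with Tet+EGF. CTSL1, the related and widely expressed cathepsin L, had 82.9 and 83.8 RPKM with Tet+EGF, 82.8, 65.9 and 58.5 RPKM with Tet and 59.5, 55.5 and 48.3 RPKM in control cells. CTSD had 287 and 296 RPKM with Tet+EGF, against 572, 496 and 541 RPKM with Tet, a log2 fold change of -1.07 (SE 0.10, limma adjusted p = 0.000964). LAMP1 had 149.8 and 149.7 RPKM with Tet+EGF, against 238, 225 and 219.9 RPKM with Tet, a log2 fold change of -0.70 (SE 0.07, limma adjusted p = 0.00122). Against control neither CTSD, at 0.23 (limma adjusted p = 0.134), nor LAMP1, at -0.04 (limma adjusted p = 0.676), passed, and CTSD passed at 0.42 without control replicate 1.

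CD68 was the 1 membrane protein called higher with EGF, while LAMP1 and SCARB2 were lower and 5 did not pass. It had 50.0 and 52.5 RPKM with Tet+EGF, against 16.2, 10.995 and 11.3 RPKM with Tet and 25.3, 18.1 and 18.7 RPKM in control cells, so both Tet+EGF libraries lay above all others. The log2 fold change was 1.65 against Tet (SE 0.08, limma adjusted p = 8.54e-05) and 0.98 against control (SE 0.08, limma adjusted p = 0.000404). The macrophage and leukocyte markers, among which CD68 was not counted, summed to 59.6 and 57.8 RPKM with Tet+EGF and again were mostly LCP1, with CD163, TYROBP and AIF1 at 0. CD14 had 0.637 and 0.598 RPKM with Tet+EGF, against 0.474, 0.135 and 0.127 RPKM in control cells. For FCER1G and ITGAX the Tet+EGF and control libraries overlapped. LCP1 had 58.1 and 56.2 RPKM with Tet+EGF, 25.0, 19.0 and 17.1 RPKM with Tet and 21.7, 40.8 and 40.1 RPKM in control cells. Its part in the CD68 values was not tested. IDS, the other gene called higher, had 26.5 and 26.0 RPKM with Tet+EGF, against 18.6, 18.5 and 16.3 RPKM with Tet (log2 fold change 0.57, SE 0.11, limma adjusted p = 0.0135). That call was lost without Tet+EGF replicate 1 (0.56) or 2 (0.58), and 17.0% of the exon bases of IDS lie in an annotated neighbour.

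The remaining 9 falls lay between -0.68 and -0.32 on the log2 scale. They were those of the glycosidases GAA (-0.68), NEU1 (-0.42), MANBA (-0.42) and HEXA (-0.39), the sphingolipid activators GM2A (-0.55) and PSAP (-0.38), the proteases CTSC (-0.37) and CTSA (-0.33) and the receptor SCARB2 (-0.32). In the comparison of Tet with control, which shares the Tet libraries, the values of these genes were 1.36, 1.20, 0.73, 0.57, 1.14, 0.62, 1.15, 0.81 and 0.76 in the same order. Each of these calls was lost without Tet+EGF replicate 1, with values between -0.65 for GAA and -0.29 for CTSA, and with the replicate block, where the adjusted p ran between 0.0685 for GM2A and 0.749 for HEXA. HEXA had 32.1 and 32.8 RPKM with Tet+EGF, against 43.1, 28.6 and 29.1 RPKM with Tet. SCARB2 had 59.4 and 59.5 RPKM, against 72.2, 60.1 and 54.2 RPKM, and MANBA 20.7 and 22.4 RPKM, against 28.9, 23.3 and 22.0 RPKM. The groups thus overlapped for HEXA, SCARB2 and MANBA, and not for the rest of the 9. For these overlapping genes the highest Tet value was that of replicate 1, the only Tet library of batch 2. TPP1 and LIPA, the largest falls with Tet, stayed at 9.71 and 9.92 RPKM and at 7.20 and 6.22 RPKM with Tet+EGF. Their log2 fold changes against Tet were 0.26 (limma adjusted p = 0.189) and -0.13 (limma adjusted p = 0.544), and TPP1 passed at 0.50 without Tet replicate 1. SQSTM1 had 141 and 158 RPKM with Tet+EGF, against 92.2, 88.8 and 89.3 RPKM with Tet, without overlap, yet at 0.50 it did not pass (limma adjusted p = 0.0748). Within batch 2, where the Tet group is 1 library, it was at 0.69. TFEB was at -0.36 (limma adjusted p = 0.485) and TFE3 at 0.08 (limma adjusted p = 0.893). Without Tet replicate 1, the only Tet library of batch 2, both passed, TFEB at -1.19 and TFE3 at -0.75, while the values against that 1 library within batch 2 were 0.05 for TFEB and 0.49 for TFE3. MITF had 0.298 and 0.343 RPKM with Tet+EGF, and in the fit without a filter its log2 fold change against Tet was -0.59 (limma adjusted p = 0.00553).

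Of the 39 other hydrolases and activators, 15 were lower and 1 higher with EGF (median -0.28), led by CREG1 at -1.22, IFI30 at -0.96, SCPEP1, a serine carboxypeptidase, at -0.80 and MAN2B2 at -0.63. Of all genes tested, 9.82% were higher and 9.15% lower. Among 37 membrane proteins and transporters, 4 were higher and 4 lower, with CLN3 at -0.91, MCOLN3 at -0.55, TPCN1, an endolysosomal ion channel, at 0.86 and SLC15A4 at 0.66. The proton pump had 0 higher and 2 lower of 18, ATP6AP1 at -0.62 and ATP6V1E1 at -0.56, and at an unadjusted limma p under 0.05 it had 0 higher and 6 lower. Sorting and delivery had 2 higher and 3 lower of 40, with SORT1, sortilin, at -1.25 and SORL1 at 0.83. SORT1 reached 1 RPKM only in the Tet libraries, where it was high, so its call is only counted. Autophagy had 3 higher and 4 lower of 38, and mTORC1 regulation 1 and 5 of 28. In the mTORC1 list GATSL3 was at -1.72 and SESN3 at -1.31.

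Tet+EGF was also set against control, to ask how far these genes stood from untreated cells when hairpin and EGF were both present. Of the 39 genes tested, 19 were higher, 4 were lower and 16 did not pass (limma with Benjamini-Hochberg adjustment), against 16.0% of all genes called higher and 16.2% called lower. The median log2 fold change was 0.32, against -0.01 for all genes, and it was 0.32 within batch 2. The calls of GPNMB, NEU1, ARSA, GM2A and CD68, all higher, and of CTSL2, TPP1 and LIPA, all lower, held under every alternative. As before, GPNMB is only counted, because it passed the filter through libraries with tetracycline. Without Tet+EGF replicate 1 the counts were 8 higher and 4 lower, and without Tet+EGF replicate 2 they were 6 higher and 4 lower. Without Tet replicate 1 the counts were 23 higher and 8 lower, and without control replicate 1 they were 19 higher and 8 lower. With the replicate block 11 were higher and 3 lower. Here too the block sets Tet+EGF replicate 2 beside libraries of batch 1.

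NEU1 had 30.0 and 31.1 RPKM with Tet+EGF, against 17.9, 16.4 and 15.9 RPKM in control cells, which gave a log2 fold change of 0.78 (SE 0.09, limma adjusted p = 0.00104). ARSA had 12.2 and 11.8 RPKM with Tet+EGF, against 6.88, 7.33 and 7.93 RPKM in control cells (log2 fold change 0.80, SE 0.10, limma adjusted p = 0.00155). GM2A had 76.1 and 76.8 RPKM with Tet+EGF, against 49.5, 45.4 and 44.1 RPKM in control cells (log2 fold change 0.58, SE 0.08, limma adjusted p = 0.00233). These 3 enzymes and activators lay between the Tet and the control libraries. TPP1, at -1.24 (SE 0.12, limma adjusted p = 0.000621), and LIPA, at -1.24 (SE 0.13, limma adjusted p = 0.000814), were below all control libraries in both Tet+EGF libraries. GUSB had 12.6 RPKM in each Tet+EGF library, against 23.6, 19.8 and 18.2 RPKM in control cells, a log2 fold change of -1.09 (SE 0.17, limma adjusted p = 0.00431).

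CTSC was at 0.78, GAA at 0.68, SQSTM1 at 0.64, NAGLU at 0.62, SGSH at 0.56 and IDS at 0.51 on the log2 scale, and 7 others that passed, CTSA, LAMP2, SCARB2, MCOLN1, CD63, GLB1 and MANBA, lay between 0.32 and 0.48, with PSAP lowest at 0.24. Of these 14 calls, 13 were lost when a single Tet+EGF library was left out, with values between 0.24 and 0.72, and that of CTSC was not. With the replicate block the calls of CTSC, LAMP2, CD63, GLB1, GUSB, MANBA, PSAP, IDS and MCOLN1 were lost, at an adjusted p between 0.0502 for GUSB and 0.494 for MCOLN1. The value of SQSTM1 and that of GAA was 1.02 without control replicate 1. Without that library LAMP2 (0.19), CD63 (0.24), IDS (0.34) and MCOLN1 (0.23) did not pass. TFEB, at 0.06 (limma adjusted p = 0.9), and TFE3, at -0.22 (limma adjusted p = 0.611), did not pass. Within batch 2 TFEB was at -0.35 and TFE3 at -0.64, while without control replicate 1, the only control library of batch 2, they were at 0.88 and 0.60. The batch 2 values rest on that 1 control library.

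In this comparison 16.0% of all genes tested were higher and 16.2% lower. Of the 39 other hydrolases and activators, 16 were higher and 3 lower than in control cells, with FUCA1, a fucosidase, at 1.54, CTSO at 1.26 and SMPD1 at 0.96. Of 37 other membrane proteins and transporters, 14 were higher and 0 lower (at an unadjusted limma p under 0.05, 19 and 0), with SLC17A5 at 1.78, TPCN1 at 1.32 and SLC36A1 at 1.19. Of 18 other proton pump genes, 6 were higher and 2 lower, ATP6AP2 again standing lowest at -2.29. Sorting and delivery had 10 higher and 2 lower of 40, autophagy 11 and 2 of 38, and mTORC1 regulation 10 and 4 of 28.

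Of 10 fibroblast markers, 3 passed the filter. COL1A1 was higher with Tet, while FAP stood at 0.09 (limma adjusted p = 0.511). DCN passed the filter only through the Tet libraries, where it was high, so its values are given without a call. The list summed to 12.3 and 11.5 RPKM with Tet+EGF, 26.9, 27.3 and 27.6 RPKM with Tet and 9.56, 12.7 and 15.1 RPKM in control cells, with FAP the highest. DCN, a proteoglycan gene, had 0.076 and 0.081 RPKM with Tet+EGF, 9.01, 7.61 and 7.04 RPKM with Tet and 0.080, 0 and 0.027 RPKM in control cells. Below the filter, LUM had 0.014 and 0.030 RPKM with Tet+EGF, 0.213, 0.194 and 0.187 RPKM with Tet and 0.015, 0 and 0 RPKM in control cells. THY1 went the other way, at 0.094, 0.069 and 0.041 RPKM with Tet and 0.352, 0.228 and 0.395 RPKM in control cells. COL1A2, COL3A1 and PDGFRA did not exceed 0.026 RPKM in any library. Of the 12 keratinocyte markers, 8 were higher and 4 were lower with Tet, the lower ones being ITGA6 (-1.78), ITGB4 (-0.997), COL17A1 (-0.44) and TP63 (-0.33). The 12 summed to 24041 and 23383 RPKM with Tet+EGF, 50023, 48512 and 52834 RPKM with Tet and 31784, 27229 and 27675 RPKM in control cells. Their part in the lysosome results was not tested.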

How the data were processed

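Poly(A) RNA from 8 samples of the keratinocyte line was read on a Genome Analyzer IIx, each library in 1 lane. The authors deposited 1 table of RPKM values per gene symbol and library, aligned with TopHat 1.3.3, per the submitters' processing notes, with the gene counter, genome build and annotation not given in the sources used here. RPKM values are scaled to depth and length, so no counts entered the tests.

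Genes that reached 1 RPKM in 2 or more libraries entered the tests (12567 of 21510). Their log2(RPKM + 0.5) values were modelled by limma (version 3.58.1, R 4.3.3), with group and batch as terms over all 8 libraries, a mean-variance trend, two-sided tests and Benjamini-Hochberg adjustment over all kept genes at 0.05. A second fit gave the interaction of batch with Tet. Fold changes are on the log2(RPKM + 0.5) scale and understate changes of low genes. The procedure was tested on simulated data. Figures were drawn with matplotlib 3.10.9, and tables were made with pandas 2.3.3 and numpy 2.4.6 under Python 3.11.15.

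The member genes and the further gene lists were chosen with earlier results of these data known. Members with an absolute log2 fold change of at least 1 past the threshold, GPNMB, the transcription factors, LAMP1, CTSD and SQSTM1 were named in full, as were up to 4 genes of each further list with the smallest p, apart from items not reported here, and AREG and the highest marker of each cell type list. CSF1R, GPR143, DCN, COL1A1, CTSL1, the keratinocyte markers that were lower, genes at 0, the cell type markers below the filter and the other members given in full were named after their values were seen. Of the 6 further lists, 3 had all their symbols in the table, and non-members were not followed under other settings.

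Same-numbered control and Tet libraries deviated from their group means together (r = 0.476, 0.314 and 0.338 across genes), but libraries of the same batch with different numbers did too (0.272 and 0.334), so number and batch cannot be told apart. Same-numbered Tet+EGF libraries deviated oppositely (-0.310 and -0.263 against control, -0.137 and -0.155 against Tet). Alternatives changed the pseudocount, filter, scaling, trend, batch term, replicate block, libraries and batches included. Promoters were taken from RefSeq (GRCh38.p14), and 3' UTRs and exon overlaps from GENCODE v29 (GRCh38).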

Additional observations from a re-analysis of the deposited data

How the results depend on the processing

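Depth and 2 to 3 libraries per group limit these results, and both Tet+EGF libraries lie in batch 2. Of 2331 values of 117 member differences under other settings, 2032 were counted as unchanged. Such a value was past the threshold in both fits with the same sign, or in neither and moved by less than the replicate spread. The sign changed in 69 values that were past the threshold in neither fit. Of the 67 calls, 35 were kept under every setting. These were 22 of 29 for Tet against control, 5 of 15 for Tet+EGF against Tet and 8 of 23 for Tet+EGF against control, with GPNMB counted in each. The cause of the changes was not tested.

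For Tet against control the count of members lower was 7. With no batch term it was 3, namely TPP1, LIPA and CD68, so the lower call of GUSB was lost there with those of CTSB, CTSZ and PPT1. HEXA, which was higher, also lost its call in that fit. The count of members lower was 4 with only the 2 groups compared or with the replicate block, and leaving out 1 library gave 4 to 8. For Tet+EGF against Tet the members higher, 2, were 5 with only the 2 groups compared, 6 in batch 2 alone, 1 with the replicate block and 1 to 8 when 1 library was left out. The members lower, 13, were 4 with no batch term or with the replicate block, 20 with only the 2 groups compared, 21 in batch 2 alone and 4 to 21 when 1 library was left out. For Tet+EGF against control the members higher, 19, were 11 with the replicate block and 6 to 23 when 1 library was left out, and the members lower, 4, were 9 with only the 2 groups compared, 10 in batch 2 alone and 4 to 8 when 1 library was left out. In batch 2 alone the Tet and control groups are 1 library each, and the spread is that of the 2 Tet+EGF libraries. The replicate block ended 5, 10 and 9 calls in the 3 comparisons and ended no other call of a member. It replaces the batch term and sets Tet+EGF replicate 2, of batch 2, beside libraries of batch 1. These losses therefore cannot be told apart from the difference between batches.

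NPC2 (Tet+EGF against Tet) turned to -0.20 with only the 2 groups compared, in batch 2 alone or without control replicate 1, and ran between -0.20 and 0.72 when 1 library was left out. PPT1 ran between -0.28 and 0.37 and TFE3 between -0.75 and 0.49 in that comparison, both turning without Tet replicate 1. For Tet+EGF against control NPC2 ran between -0.32 and 0.60, TFEB between -0.35 and 0.88 and TFE3 between -0.64 and 0.60 when 1 library was left out; TFEB was at -0.35 with only the 2 groups compared and in batch 2 alone, and NPC2 and TFE3 turned without control replicate 1. No scaling moved the median of all genes by over 0.1 on the log2 scale.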
